A study of Sus scrofa with 9 samples.

Results

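Mature sperm and pronuclear (PN) embryos of the pig were compared by whole-transcriptome sequencing. The comparison used 6 of the 9 libraries of the series, the 3 of sperm and the 3 of PN embryos, chosen by their labels, and asked how much of what is most abundant in sperm was also read in the 1-cell embryo. The other 3 libraries, of MII oocytes that never met sperm, served as the background against which sperm RNA in the embryo can be read. Sperm RNA came from purified, fresh, mature sperm of Large White boars. PN embryos, in which the chromosomes of sperm and egg still lie in separate pronuclei, were made by in vitro fertilization (IVF) of oocytes matured in vitro, with sperm of Landrace boars, so that the sequenced sperm and the fertilizing sperm differed in breed. After IVF, cumulus cells and sperm on the surface were removed by vortexing with hyaluronidase, which was also used to free the MII oocytes of cumulus cells. No group carried a treatment or a genetic change. Ribosomal RNA was removed from total RNA, which was made into strand-specific libraries that were amplified by PCR. Nothing states that the 3 libraries of a group came from separate animals or batches, so p-values measure the spread between these libraries, which may be technical. In such bulk libraries, fewer cells and less RNA per cell cannot be told apart, and neither can RNA inside the embryo and RNA of sperm still attached to it.

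A mature sperm cell has condensed its chromatin with protamines and no longer transcribes, so its RNA is what remains of spermatogenesis or was taken up later in the male tract. At fertilization this RNA enters an egg that holds a far larger store of maternal RNA and whose own genome is also silent. Circular RNAs (circRNAs) are closed loops, mostly ones in which the end of an exon is joined backwards, to its own start or to that of an exon before it. They lack free ends and are known as stable, and they are counted by the reads that cross this back-splice junction. Long noncoding RNAs (lncRNAs) are longer transcripts without a known protein product, although the lncRNA table here also names transcripts of loci that code for proteins.

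The mRNA table held whole-number counts for 70688 assembled loci, the lncRNA table held the mean read depth (coverage) of 60759 transcripts, and the circRNA table held counts for 3071 circRNAs from 1727 host genes. Of these circRNAs, 46 carried the prefix ciRNA, commonly used for circles of intron sequence. mRNA counts summed to between 25745522 and 26494348 per sperm library and between 91924597 and 94137406 per PN embryo library. The totals of PN embryos and MII oocytes exceeded the valid reads that the study lists for these libraries. How the counts per locus arose is not stated. CircRNA counts went the other way, with totals of 23056, 26200 and 24503 in PN embryos and of 155731 and 167851 in sperm. In the circRNA table the sperm columns 1 and 3 were identical for all 3071 circRNAs and were counted as 1 sample, sperm 1, so that circRNA results rest on 2 sperm libraries. The labelled cell types were checked against markers. Protamine 1 (PRM1) stood at 113386, 128427 and 134556 counts in sperm, and OOEP, a component of the subcortical maternal complex of the oocyte, at 822, 1054 and 492 in PN embryos and at 0 in sperm. Of 18 sperm markers only 4 were found among the named loci, and of these AKAP3, an anchoring protein of the sperm tail, was at 0 in every sperm and PN embryo library. The oocyte markers, found at 6 loci of 3 genes, summed to 1495, 1106 and 925 counts among PN embryos and to 517, 1708 and 0 in sperm. The cumulus markers, found at 31 loci of 4 genes, summed to between 787 and 12902 counts in sperm and between 1186 and 1786 in PN embryos. Of 6 leukocyte markers 1 was found, PTPRC, with 1362 and 884 counts in 1 sperm library each and 0 in PN embryos. None of the 4 epithelial markers was found by name, which is no measure of absence because most loci carry no name. The part of these cells in the results was not tested.

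The RNAs most abundant in sperm were read in PN embryos to a very different extent in the 3 tables. Of the 100 mRNA loci with the highest mean in sperm, 0 were at 0 in all PN embryo libraries and 92% were above 0 in all 3 of them. Of the 100 highest lncRNA transcripts, 39% were at 0 in all PN embryo libraries and 26% were above 0 in all 3. Of the 100 highest circRNAs, 52% were at 0 in all PN embryo libraries and 6% were above 0 in all 3. Among the 20 highest of each kind the shares at 0 were 0% for mRNA loci, 35% for lncRNAs and 15% for circRNAs, and among the 500 highest they were 0.8%, 48.6% and 76%. These shares compare a locus, which can hold many transcripts, with single transcripts and single junctions, and the depth of the tables differs, so that they describe the tables and not the kinds of RNA.

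**Figure D1:**
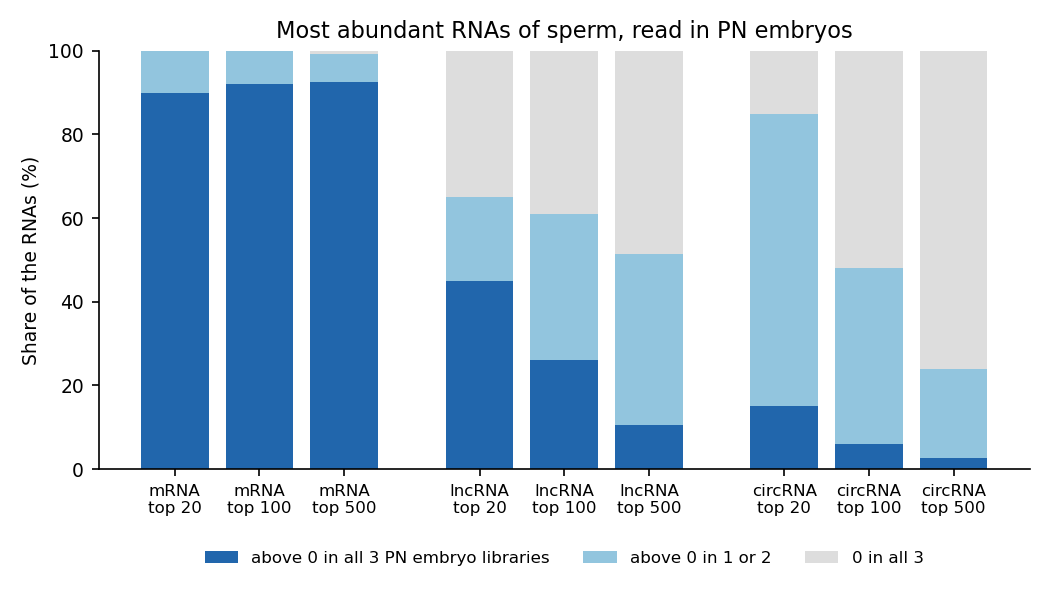
Share of the 20, 100 and 500 most abundant RNAs of sperm (vertical axis, %) that were above 0 in all 3 PN embryo libraries (dark blue), in 1 or 2 of them (light blue) or in none (grey), for the mRNA, lncRNA and circRNA tables. Nearly all mRNA loci were seen in the embryo, while 52% of the top 100 circRNAs and 39% of the top 100 lncRNAs were at 0.

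Being seen in PN embryos was not the same as being abundant there. The top 100 circRNAs of sperm held 45.1% of all circRNA counts in sperm and summed to 67873 and 78059 counts in the 2 sperm libraries. In PN embryos they summed to 265, 810 and 673 counts, 0.799% of the sperm mean, and in MII oocytes to 817, 756 and 330. The PN embryo libraries overlapped with the MII oocyte libraries and both groups lay far below sperm. Of these 100 circRNAs, 82 had at most 2 counts in every PN embryo library, and 44 were at 0 in all MII oocyte and all PN embryo libraries. The share seen also differed with the number of sperm libraries that held a circle. Of the 48 top circRNAs above 0 in both sperm libraries 35.4% were at 0 in PN embryos, and of the 52 above 0 in a single sperm library 67.3% were. Sperm held 1004 circRNAs in any library and PN embryos 1308, and the 185 held by both were 18.4% of those of sperm and 14.1% of those of PN embryos. Only 126 circRNAs were above 0 in both sperm libraries and only 74 in all 3 PN embryo libraries.

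The circRNA of highest abundance in sperm was circRNA-199, from WDR27, a gene for a WD-repeat protein. It had 6309 and 5518 counts in the sperm libraries, 5, 0 and 0 in the PN embryo libraries and 1, 0 and 0 in the MII oocyte libraries. A second circle of WDR27, circRNA-1187, had 2076 and 1133 counts in sperm and 0, 1 and 1 in PN embryos. Both circles of this gene were thus at or near 0 in the embryo. The same was seen for circRNA-2050 of TESK2, a kinase that phosphorylates the actin-binding protein cofilin, with 1166 and 3843 counts in sperm and 0, 0 and 1 in PN embryos. CircRNA-1330 of RRP1, a factor of ribosomal RNA processing, had 2059 and 2161 counts in sperm and 1, 0 and 0 in PN embryos. CircRNA-1282 of PPA2, the mitochondrial inorganic pyrophosphatase, had 1998 and 2118 counts in sperm and 1, 1 and 0 in PN embryos. In these circRNAs the sperm and PN embryo libraries did not overlap, which their choice by the sperm mean makes likely.

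Of the top 20 circRNAs, 12 had at most 2 counts in every PN embryo library and 3 were at 0 in all of them. CircRNA-516 of THAP4, a THAP-domain protein, had 857 and 2058 counts in sperm and 0 in every PN embryo library. Against a floor of 3 counts per library this is at least 486-fold higher in sperm. The fold is for counts as read and would be smaller if scaled to the circRNA totals, which are higher in sperm. CircRNA-3004 of B3GALNT2, a glycosyltransferase that acts on dystroglycan, had 0 and 1684 counts in sperm, and circRNA-2835 of ECPAS, an adaptor of the proteasome, had 0 and 1630. Both were absent from the count of the other sperm library, so that their rank rests on sperm 2 alone. Sperm means of the top 20 ran from 779.5 to 5914 counts, and the highest count in any PN embryo library was 172. MII oocytes held some of these circles at a higher count than PN embryos. CircRNA-568 of DNAJB6, a co-chaperone of the Hsp40 family, had 116, 109 and 0 counts among MII oocytes against 0, 1 and 1 in PN embryos and 1321 and 658 in sperm. CircRNA-356, another circle of PPA2, had 80, 49 and 2 counts among MII oocytes, 2, 1 and 1 in PN embryos and 1051 and 1196 in sperm.

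**Figure D2:**
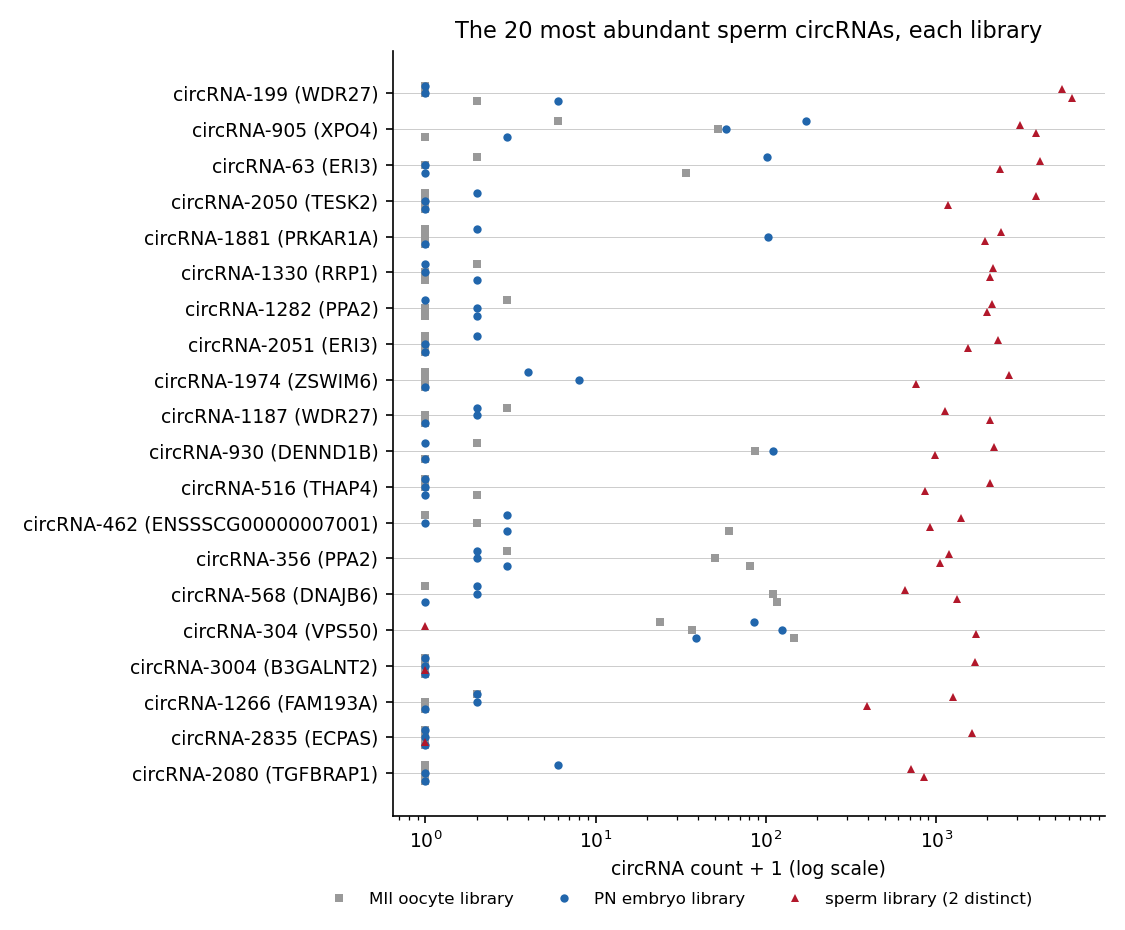
Counts of the 20 circRNAs most abundant in sperm (horizontal axis, count + 1, log scale), with the host gene in brackets, in each MII oocyte library (grey squares), PN embryo library (blue circles) and distinct sperm library (red triangles). Sperm libraries sit at the right, except 1 library each for the circles of VPS50, B3GALNT2 and ECPAS, and most PN embryo points sit between 0 and 2 counts.

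The circRNAs of the top 20 with over 50 counts in a PN embryo library were 5, and in 3 of these a single library held nearly all of the count. CircRNA-905 of XPO4, an exportin that carries proteins out of the nucleus, had 2, 57 and 172 counts among PN embryos, 3877 and 3104 in sperm and 0, 51 and 5 in MII oocytes. CircRNA-63 of ERI3, an exoribonuclease family member, had 0, 0 and 101 counts among PN embryos, 2377 and 4081 in sperm and 33, 0 and 1 in MII oocytes. CircRNA-1881 of PRKAR1A, a regulatory subunit of protein kinase A, had 0, 102 and 1 counts among PN embryos, 1940 and 2393 in sperm and 0 in every MII oocyte library. CircRNA-930 of DENND1B, an exchange factor for Rab35, had 0, 109 and 0 counts among PN embryos, 986 and 2175 in sperm and 0, 85 and 1 in MII oocytes. For DENND1B an MII oocyte library that had no contact with sperm thus held a count close to that of PN embryo 2. CircRNA-304 of VPS50, a subunit of a complex that recycles endosomes, had 38, 123 and 84 counts among PN embryos, 1710 and 0 in sperm and 146, 36 and 23 in MII oocytes. It was present in all oocyte and embryo libraries, and its sperm count stood in 1 library.

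Over the top 100 circRNAs of sperm, 12 had more than 10 counts in a PN embryo library, and 15 had more than 10 in an MII oocyte library. Of the 12, only the circles of PRKAR1A, C18orf25 and MAP2K4 were at 0 in all MII oocyte libraries, and of the 15, 2 were at 0 in all PN embryo libraries. CircRNA-1572 of C18orf25 had 96, 9 and 0 counts among PN embryos and 0 and 1332 in sperm. CircRNA-1892 of MAP2K4, a kinase that activates the stress kinase JNK, had 0, 126 and 0 counts among PN embryos and 33 and 998 in sperm. Each of these 3 circRNAs was thus above 10 counts in a single PN embryo library. For circRNA-1572 and circRNA-1892 the sperm and PN embryo libraries overlapped. The back-splice junction of circRNA-1572, a circle of 785 bases, is shown because it is the stretch that tells the circle from linear RNA of C18orf25. In the first line the last 15 bases of the listed sequence, in lower case, are followed by its first 15, in capitals. The 2 small interfering RNAs (siRNAs) that the study designed against this circle lie over the same junction, with 13 and 8 bases before it, and capitals again mark the bases after it. In the pair of small interfering RNAs against circRNA-1892, capitals mark the stretch that both share. For circRNA-1881 the divergent primers are given, which point away from each other on linear RNA and so amplify only the circle.
circRNA-1572 junction: cugcagagauaccagGUUGGUUUCCUGUUG
siRNA 1 against circRNA-1572: gcagagauaccagGUUGGU
siRNA 2 against circRNA-1572: gauaccagGUUGGUUUCCU
siRNA 1 against circRNA-1892: cacucuucaGAGAGGUAAA
siRNA 2 against circRNA-1892: GAGAGGUAAAcgcaaagca
circRNA-1881 divergent forward: gagagactgttattcagcaaggtga
circRNA-1881 divergent reverse: cagcaataaaggaaaccggaaaca

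Other circles of the top 100 were shared more evenly with oocytes. CircRNA-176 of LDHC, the lactate dehydrogenase of testis and sperm, had 5, 116 and 7 counts among PN embryos, 648 and 270 in sperm and 15, 0 and 7 in MII oocytes. CircRNA-221 of SMAD4, the common mediator of TGF-β and BMP signals, had 80, 28 and 269 counts among PN embryos, 722 and 113 in sperm and 45, 258 and 156 in MII oocytes. CircRNA-42 of ZMYM4, a zinc-finger protein, had 26, 0 and 0 counts among PN embryos, 494 and 518 in sperm and 157, 54 and 76 in MII oocytes. The sperm and PN embryo libraries of SMAD4 overlapped and those of LDHC and ZMYM4 did not. In all, 7 circRNAs were above 0 in both sperm and all 3 PN embryo libraries, circRNA-905, circRNA-356, circRNA-176 and circRNA-221 together with circRNA-1273 of NFXL1, circRNA-441 of CDC42BPA and circRNA-392 of NAALADL2. CircRNA-1273 had 209 and 148 counts in sperm and 1 in each PN embryo library. CircRNA-392 was of the opposite kind, with 1 count in each sperm library and 132, 75 and 124 in PN embryos.

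The most abundant circRNAs of PN embryos were in turn rare in sperm. Of the 10 highest, 7 were at 0 in both sperm libraries and 8 were above 0 in all MII oocyte libraries. CircRNA-450 of UBAP2, a ubiquitin-associated protein, had 5244, 5197 and 5513 counts among PN embryos, 3537, 3592 and 3602 in MII oocytes and 0 and 4 in sperm. A second UBAP2 circle, circRNA-453, had 1522, 1898 and 1553 counts among PN embryos and 0 in sperm. The other circles among these 10 with 0 in sperm came from AHI1, NBAS, CENPJ, COG5, OSBPL1A and TBC1D32. Only circRNA-439 of CDC42BPA, an effector kinase of Cdc42, and circRNA-540 of B3GALNT2 were among the 10 and had a high count in a sperm library. CircRNA-540 had 129, 168 and 136 counts among PN embryos and 609 and 0 in sperm, whereas the B3GALNT2 circle of sperm 2 was circRNA-3004, at 0 in PN embryos. Each of these circles of the gene thus stood in 1 sperm library, and 1 of them in the embryo.

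Single circRNAs were tested by the quasi-likelihood test of edgeR, scaled to the reads sequenced per library, and a circRNA passed if it changed by 1 or more on the log2 scale with an adjusted p (Benjamini-Hochberg) under 0.05. Of 453 circRNAs above 0 in at least 2 libraries, 0 passed and 164 had an unadjusted p under 0.05, the smallest adjusted p being 0.0527. The other tools and scalings gave 246 with DESeq2 (28 higher and 218 lower in sperm), 17 with edgeR's TMM scaling (6 and 11) and 7 with total circRNA counts as library size (0 and 7). Other settings gave more calls higher in sperm, 107 with 3 groups in 1 fit (100 higher and 7 lower) and 57 for circRNAs above 0 in at least 3 libraries (36 and 21). Without sperm 1 the count was 58 (51 and 7) and without sperm 2 it was 66 (59 and 7), in fits with a single sperm library that is assumed to vary like the PN embryo libraries. The median log2 difference between sperm and PN embryos over all tested circRNAs was -0.63 when scaled to the reads sequenced and -3.35 with TMM, because sperm holds more circRNA counts in all. Directions below are relative to the first of these.

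Summed over all circles of a host gene, 39 of 544 host genes passed, 35 higher in sperm (6.43% of those tested) and 4 lower (0.735%). With TMM the split was 1 higher and 6 lower, with total circRNA counts 2 higher and 6 lower, and with DESeq2 40 higher and 194 lower. All 35 kept the higher level in sperm under TMM and total counts. Without any 1 of the PN embryo libraries, 0 or 1 host gene passed. Of the 35, 18 had no circle in any PN embryo library, 30 had at most 2 counts in each of them, and 14 were at 0 in all MII oocyte libraries. Over all host genes with a circle in sperm, 65.4% had none in PN embryos. The 18 met the filter of 2 libraries through sperm alone, so their calls rest on that filter. With host genes above 0 in at least 3 libraries, which leaves them out, 222 were tested, and 25 were higher and 6 lower in sperm.

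WDR27 had 8385 and 6651 summed circRNA counts in sperm, and 5, 1 and 1 in PN embryos. The libraries did not overlap, and the log2 fold change was 11.58 ± 1.96 (SE, n = 2 sperm and 3 PN embryo libraries, edgeR adjusted p = 0.0146), or 8.71 with TMM (adjusted p = 0.018). PPA2 with 3049 and 3649 counts in sperm and 3, 2 and 1 in PN embryos followed, with a log2 fold change of 10.62 ± 2.04 (edgeR adjusted p = 0.015, and 0.0607 with TMM). TESK2 (12.41 ± 2.46, edgeR adjusted p = 0.015) and RRP1 (12.17 ± 2.46, edgeR adjusted p = 0.015) were each counted from nearly the single circle given above. ZSWIM6, with the single circle circRNA-1974, had 762 and 2682 counts in the sperm libraries, 0, 7 and 3 in PN embryos and 0 in MII oocytes. Its log2 fold change was 8.96 ± 2.34 (edgeR adjusted p = 0.0461). Of the 35 host genes higher in sperm, WDR27 alone passed with TMM as well, and PPA2, TESK2, RRP1 and ZSWIM6 lost the call there.

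Host genes with no circle in the embryo spanned several functions. THAP4 had 1303 and 2058 summed counts in sperm (at least 560-fold higher, against the floor of 3 counts per PN embryo library). This and the folds below are for counts as read, not scaled to the higher circRNA totals of sperm. ZMYM2, a component of transcriptional corepressor complexes, had 2416 and 786 counts (at least 534-fold). Enzymes were among them. TXNRD1, the cytosolic thioredoxin reductase, had 456 and 791 counts (at least 208-fold), and LPL, lipoprotein lipase, had 569 and 555 (at least 187-fold). NUP210L, a nucleoporin-like protein of testis, had 383 and 765 counts (at least 191-fold), and WDR7, a partner of the vacuolar proton pump, had 428 and 527 (at least 159-fold). ARNT, the dimerization partner of hypoxia-inducible factors, had 242 and 678 counts (at least 153-fold), and COPA, a coat protein of Golgi vesicles, had 355 and 386 (at least 124-fold). RNF32 was less even, with 20 and 935 counts in sperm. All of these had 0 in PN embryos, and their edgeR adjusted p-values lay between the extremes of the 35, 0.0146 and 0.0479.

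Host genes with a few counts in the embryo made up the rest. KDM5B, a demethylase of histone H3, had 1576 and 835 counts in sperm and 1, 1 and 3 in PN embryos (log2 fold change 9.40 ± 2.27, edgeR adjusted p = 0.0461). SLC25A3, the mitochondrial phosphate carrier, had 431 and 846 counts in sperm against 0, 0 and 1 in PN embryos. CNBD2, a protein with a cyclic nucleotide-binding domain, had 446 and 1126 against 0, 3 and 0. Both passed, and each was at 0 in all MII oocyte libraries.

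High sperm counts were no guarantee of passing. ERI3 had 3940 and 6392 counts in sperm and 0, 0 and 102 in PN embryos, with a log2 fold change of 7.24 ± 2.47 (edgeR adjusted p = 0.0691). XPO4 (5.51 ± 1.88, edgeR adjusted p = 0.0691), PRKAR1A (5.98 ± 2.35, edgeR adjusted p = 0.0944) and DENND1B (5.68 ± 2.24, edgeR adjusted p = 0.0944) were alike in that 1 or 2 PN embryo libraries held over 50 counts. The 4 host genes lower in sperm were UBAP2, NBAS, OSBPL1A and AHI1. UBAP2 had 6784, 7095 and 7178 counts among PN embryos and 0 and 4 in sperm (log2 fold change -11.70 ± 2.47, edgeR adjusted p = 0.0193). NBAS, a protein of Golgi-to-ER transport, had 624, 347 and 780 counts among PN embryos and 0 in sperm (edgeR adjusted p = 0.0461). AHI1, a protein of the transition zone of cilia, had 358, 626 and 234 against 0 (edgeR adjusted p = 0.0479). NBAS and AHI1 met the filter through PN embryos alone, so their calls say no more than these counts.

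**Figure D3:**
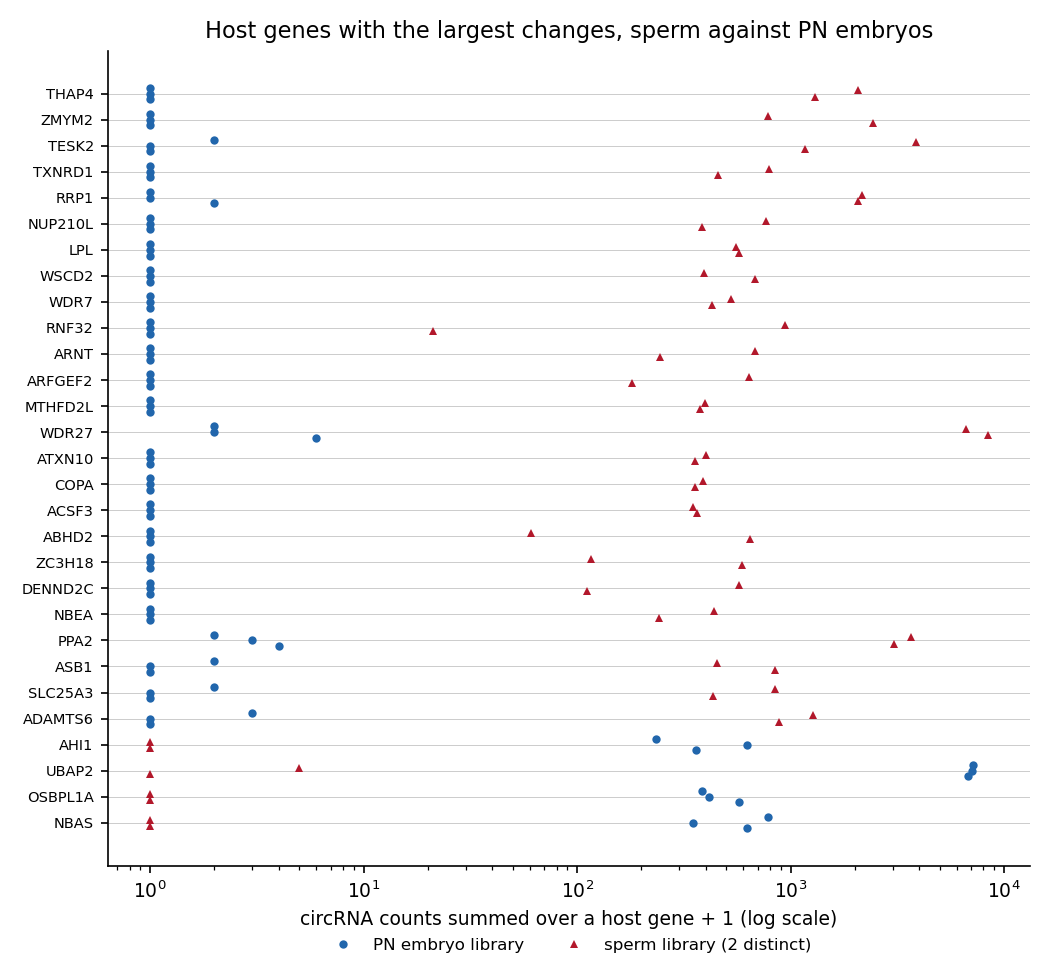
CircRNA counts summed per host gene (horizontal axis, count + 1, log scale) for host genes past the threshold, the 25 with the largest log2 fold change of the 35 higher in sperm and the 4 lower, in each PN embryo library (blue circles) and distinct sperm library (red triangles). For the upper 25 genes the PN embryo libraries sit between 0 and 5 counts, and for the last 4 the sperm libraries sit between 0 and 4.

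The host genes were also grouped by function, by the name of the gene. Of 69 host genes of cilium and flagellum, 36 had a circle in sperm and 27 of these (75%) had none in PN embryos, against 65.4% over all host genes with a circle in sperm. Of 20 tested, 2 (10%, against 6.43% of all host genes) rose in sperm, WDR27 and WDR7, which entered the list by the prefix of their name. WDR7, without a count in PN embryos, met the filter through sperm alone. The median log2 fold change of the list was 0.58, against 2.66 over all 544 host genes. EFCAB5 had 858 and 0 counts in sperm and CFAP43, a protein of the axoneme, had 0 and 891, both with 0 in PN embryos. Each thus stood in 1 sperm library. Of 28 chromatin genes, 15 had a circle in sperm and 9 of these (60%) had none in PN embryos, against the 65.4% over all. Of 12 tested, 2 (16.7%) rose, ZMYM2 and KDM5B (median 0.50). ZMYM2, without a count in PN embryos, also met the filter through sperm alone. Of 21 genes of RNA binding and splicing, 14 had a circle in sperm and 8 of these (57.1%) none in PN embryos. Of 9 tested, 1 (against 6.43% of all host genes) rose, HNRNPLL, a splicing regulator, with 544 and 638 counts in sperm and 0, 0 and 1 in PN embryos (median 2.04).

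Of 15 host genes of cAMP and protein kinase A signalling, 7 had a circle in sperm and 3 of these (42.9%) had none in PN embryos. Among the 3 was PRKAA2, with 1284 and 0 counts in sperm, which entered the list by the prefix of its name and not by its function. None of the 6 tested passed, and their median log2 fold change was 4.69. Over all host genes 65.4% of those in sperm had none in PN embryos, 6.43% of those tested rose in sperm and the median was 2.66. AKAP6, an anchoring protein of the kinase, had 0 and 1443 counts in sperm and 0, 0 and 1 in PN embryos. CREB1, a transcription factor that the kinase phosphorylates, had 442 and 75 in sperm and 0, 73 and 1 in PN embryos. Of 29 genes of cell cycle and centromere, 17 had a circle in sperm and 7 of these (41.2%) had none in PN embryos, and 0 of 12 tested passed (median 1.83). The summed counts of this list in PN embryos were 40.5% of those in sperm, against 15.2% over all host genes and between 3.84% and 5.73% for the other 4 lists. CDC42BPA, which entered the list by the prefix of its name, had 317, 428 and 430 counts among PN embryos and 267 and 708 in sperm, and the groups overlapped. MGA, a partner of MAX, had 67, 129 and 346 against 269 and 395, and MCM6, a subunit of the replicative helicase, had 71, 117 and 1 against 332 and 232.

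Many host genes were shared without sharing a circle. Of 809 host genes with a circle in sperm and 842 in PN embryos, 280 were the same genes (34.6% and 33.3%), and 109 of these had no circle in common. Of the 52 top circRNAs of sperm that were at 0 in PN embryos, 11 came from a host gene with another circle in a PN embryo library and 41 from a gene with none.

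In the mRNA table, 10852 of 17980 tested loci passed between sperm and PN embryos in edgeR, 1496 higher in sperm (8.32%) and 9356 lower (52.0%). Scaled to the reads sequenced per library, 770 were higher and 10504 lower, and with DESeq2 2198 and 9845. Far fewer passed with libraries of the same number treated as a block (463 higher and 712 lower) and without a filter on low values (231 and 449). The locus of highest count in sperm, MSTRG.8365, carried the name Metazoa_SRP, the family name for 7SL, the RNA of the signal recognition particle that takes nascent proteins to the endoplasmic reticulum. It had 1265078, 1262653 and 1249666 counts in the sperm libraries, 60775, 64409 and 61427 in PN embryos and 47626, 51820 and 64794 in MII oocytes. Sperm stood far above both other groups, which overlapped. The log2 fold change of sperm against PN embryos was 6.32 ± 0.04 (SE, n = 3 per group, edgeR adjusted p = 2.56e-08).

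PRM1 and PSP-II were RNAs of sperm or semen near 0 in the embryo. Protamine 1 replaces histones in sperm chromatin, and PRM1 had 65, 45 and 87 counts among PN embryos and 5, 0 and 27 in MII oocytes against the sperm counts given above. All 3 PN embryo libraries lay above all 3 MII oocyte libraries, at 0.0523% of the sperm mean, but the difference did not pass (log2 fold change 2.73, edgeR adjusted p = 0.931). Between sperm and PN embryos the log2 fold change was 12.87 ± 0.40 (edgeR adjusted p = 4.71e-05). PSP-II, a spermadhesin of boar seminal plasma, had 122790, 115212 and 107076 counts in the sperm libraries, 64, 23 and 56 in PN embryos and 0, 0 and 27 in MII oocytes. Its log2 fold change was 13.21 ± 0.60 (edgeR adjusted p = 0.00017). At MSTRG.3200, a locus of WDR27, the host of the leading circle, the sperm libraries had 31290, 30074 and 33113 counts. PN embryos had 86, 32 and 17 and MII oocytes 2, 0 and 6 (11.42 ± 0.88 for sperm against PN embryos, edgeR adjusted p = 0.0012). The count of this locus, which can include reads from within the circles, was high in sperm and near 0 in the embryo. The junction counts of the gene were likewise. Over all 4 loci listed under the name WDR27, the sums were 92, 32 and 624 counts among PN embryos and 2, 0 and 12 in MII oocytes. In PN embryo 3 the gene was thus not near 0 at every locus.

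Other named loci of the sperm top 100 followed the same pattern. DAB2IP, a GTPase-activating protein of the Ras family, had 22295, 32879 and 30980 counts in sperm and 10, 4 and 14 in PN embryos. AMCF-II, a chemokine of the CXC family, had 14454, 11243 and 20566 in sperm, 8, 4 and 17 in PN embryos and 0 in MII oocytes. IFI6, an interferon-induced protein, had 12159, 23303 and 18581 in sperm and 10, 14 and 19 in PN embryos. All 3 loci were present in every PN embryo library at under 20 counts. ZNF598, a ubiquitin ligase of collided ribosomes, had 49349, 42428 and 41193 in sperm and 11, 33 and 56 in PN embryos, but 4, 37 and 180 in MII oocytes. For B2M, the light chain of MHC class I, MII oocytes with 720, 1023 and 480 counts lay above PN embryos with 315, 168 and 70, and sperm had 50539, 26320 and 38801. These 2 loci were therefore at a similar or higher count in oocytes that had not met sperm.

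Other loci abundant in sperm had counts of the same order or higher in the embryo. SETD3, a methyltransferase of actin, had 20447, 13677 and 23403 counts in the sperm libraries, 9090, 8756 and 9087 in PN embryos and 10383, 11233 and 10293 in MII oocytes. Every PN embryo library lay below every sperm library, and the log2 fold change was 3.08 ± 0.32 (edgeR adjusted p = 0.00405). PTP4A1, a protein tyrosine phosphatase, had 20907, 22599 and 8784 in sperm and 13727, 13716 and 11515 in PN embryos. Its counts overlapped, and after scaling it too was higher in sperm (2.40 ± 0.43, edgeR adjusted p = 0.00613). UBE2D3, a ubiquitin-conjugating enzyme, had 7757, 12718 and 14698 in sperm and 89899, 92686 and 99130 in PN embryos. Its log2 fold change was -1.03 ± 0.28 (edgeR adjusted p = 0.0195), closer to 0 than the ratio of the counts, since the fit divides each library by its total and its TMM factor. This call was lost with DESeq2, with a replicate block and without a filter on low values. The median log2 difference over all tested loci was -5.13 with TMM and -7.06 when scaled to the reads sequenced per library, and directions here are relative to the first. In counts as read, the sperm mean was not above the PN embryo mean in 24 of the top 100 mRNA loci of sperm. In 43 it was at least 20 times the PN embryo mean.

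**Figure D4:**
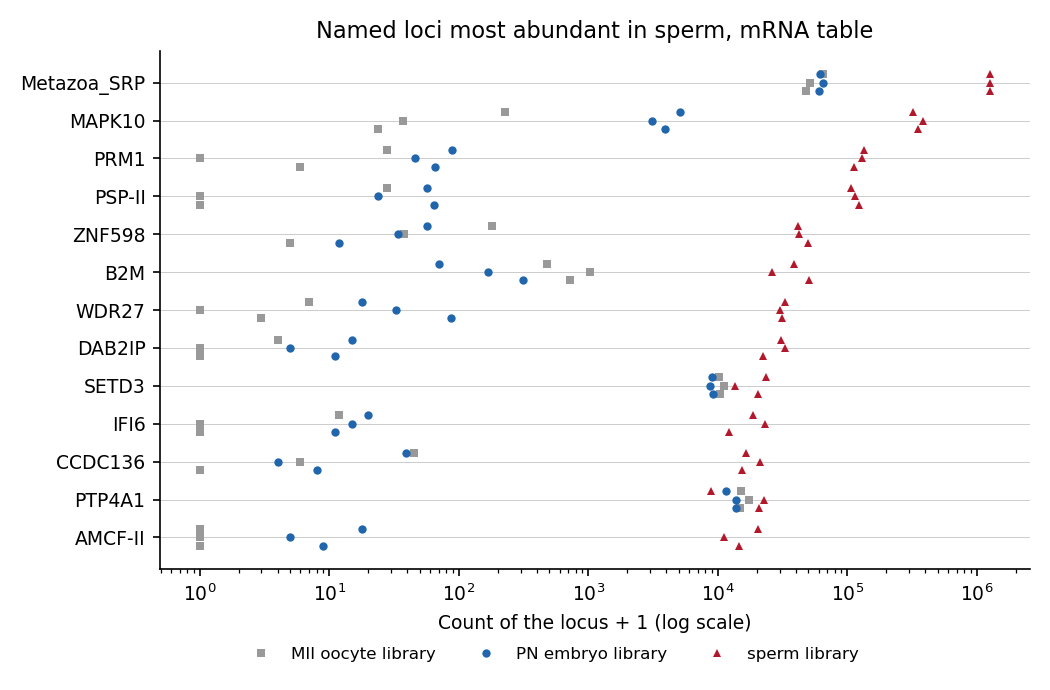
Counts of the named mRNA loci among the 100 most abundant in sperm (horizontal axis, count + 1, log scale) in each MII oocyte library (grey squares), PN embryo library (blue circles) and sperm library (red triangles). PRM1, PSP-II, ZNF598, WDR27, DAB2IP, IFI6, CCDC136 and AMCF-II sit below 100 counts among PN embryos, whereas SETD3 and PTP4A1 lie near the sperm libraries.

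Among all loci with a name, those with the largest changes that passed were at 0 in the other group. Each met the filter on low values only through the group in which it was high. Their calls and their rank therefore say no more than the counts. Higher in sperm were SNX33, a sorting nexin of endocytosis, with 2945, 3707 and 4146 counts, CELSR3, an adhesion receptor of the cadherin family, with 4003, 4345 and 1565, and ERGIC1, a protein between ER and Golgi, with 1152, 4618 and 3184. All had 0 counts among PN embryos and in MII oocytes. No fold against the floor is given, because the totals of this table differ between the groups. DLEC1, SLC22A23 and BRD1 were also at 0 in PN embryos, and DLEC1 and BRD1 had 8 and 6 counts in MII oocyte 3. Lower in sperm were XDH, xanthine dehydrogenase, with 9758, 7621 and 7894 counts among PN embryos, TKT, the transketolase of the pentose phosphate pathway, with 6519, 6148 and 9668, and RAD54L, a translocase of homologous recombination, with 4514, 3801 and 5159. All were at 0 in sperm and above 0 in every MII oocyte library. TAFA4, PTPN5 and KIF26B followed.

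MII oocytes gave the background for the question of transfer. A set of 258 loci was defined as restricted to sperm, with at least 1000 counts in every sperm library and a sperm mean at least 20 times the mean over oocytes and embryos. This definition was chosen after the data were seen, and what follows describes these loci. Here and below, the definition, the shares of the sperm mean and the order of libraries are for counts as read. The mRNA totals were lower in sperm than in the other groups, so shares scaled to them would be smaller. In PN embryos 101 were above 0 in all libraries and 41 at 0 in all, and in MII oocytes 81 and 73. The median locus stood at 0.107%, 0.0528% and 0.106% of its sperm mean in the 3 PN embryo libraries and at 0%, 0% and 0.0927% in the 3 MII oocyte libraries. In 18 loci (6.98%) all PN embryo libraries lay above all MII oocyte libraries, against 2.86% of all loci above 0 in these libraries, and in 13 (5.04%) the reverse held, against 5.61%. This balance depended on the definition: with a sperm mean of at least 5 times the others, 20 of 403 loci had PN embryos above MII oocytes and 32 the reverse, and at 100 times 15 and 2 of 172 did. Of 116 that could be tested between PN embryos and MII oocytes in edgeR, 3 were higher in PN embryos (0.0864% of all 26611 tested loci were) and 0 lower, with 8 higher and 4 lower at an unadjusted p under 0.05. DESeq2 called 8 higher and 4 lower.

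The 3 loci were MAPK10, MSTRG.73924 and MSTRG.38617, all among the 5 most abundant in sperm. MAPK10, which codes for the neuronal stress kinase JNK3, named the locus MSTRG.69172, with 351335, 384949 and 323246 counts in the sperm libraries, 3877, 3107 and 5080 in PN embryos and 23, 36 and 227 in MII oocytes. Every PN embryo library lay above every MII oocyte library and far below sperm, at 1.14% of the sperm mean against 0.027%. The log2 fold change of PN embryos against MII oocytes was 5.52 ± 0.74 (edgeR adjusted p = 0.00341). MSTRG.73924, a locus without a name, had 395727, 446401 and 407687 counts in the sperm libraries, 2717, 2881 and 3018 in PN embryos and 306, 386 and 349 in MII oocytes. This locus had the smallest SE of the 3, with a log2 fold change of 3.17 ± 0.34 (edgeR adjusted p = 0.000845), and stood at 0.689% of the sperm mean. MSTRG.38617 had 229380, 294262 and 256489 in sperm, 1488, 3641 and 1874 in PN embryos and 510, 589 and 581 in MII oocytes. Its log2 fold change was 2.18 ± 0.42 (edgeR adjusted p = 0.0275), and the call was lost without any 1 of the MII oocyte libraries or without PN embryo 2 (adjusted p between 0.0707 and 0.21). With sperm added to the fit, neither MAPK10 (5.50, edgeR adjusted p = 0.816) nor MSTRG.38617 (2.17, edgeR adjusted p = 0.813) passed between PN embryos and MII oocytes. The name MAPK10 says only that the assembled locus lies at that gene, and loci of repeated or near-identical sequence can share reads.

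**Figure D5:**
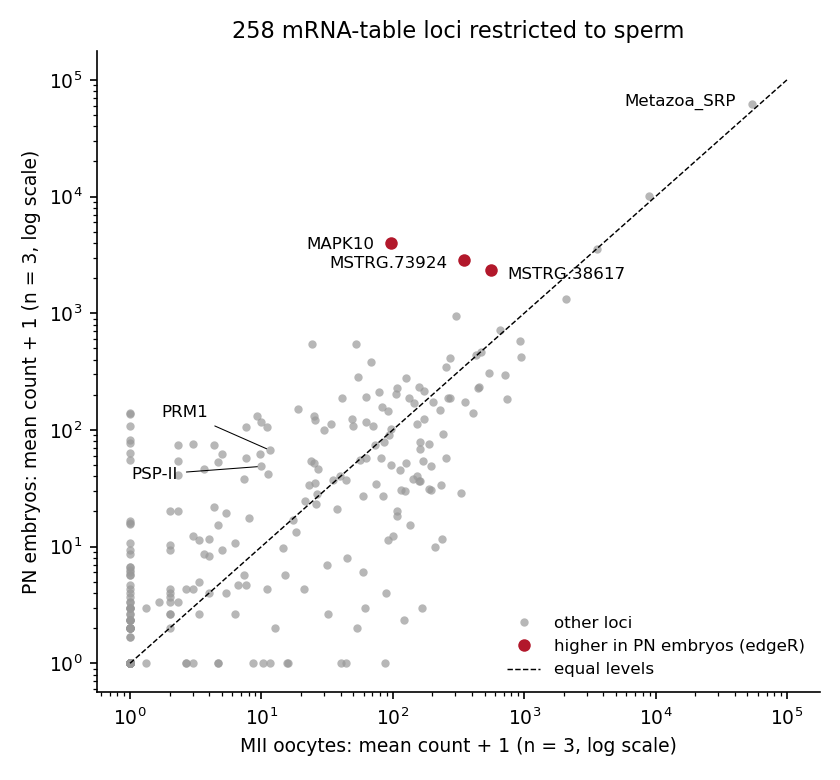
Mean count + 1 in MII oocytes (horizontal axis, log scale) and in PN embryos (vertical axis, log scale), n = 3 each, for the 258 loci restricted to sperm. MAPK10, MSTRG.73924 and MSTRG.38617 (red) lie above the dashed line of equal levels, Metazoa_SRP lies near it, and grey points lie on both sides.

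Among the 20 mRNA loci of highest sperm count, 15 were restricted to sperm in this sense. Over all loci above 0 in an MII oocyte or PN embryo library, 2.86% had every PN embryo library above every MII oocyte library and 5.61% the reverse. In 8 of the 15 all PN embryo libraries lay above all MII oocyte libraries, and in 0 the reverse held. Besides the 3 above and PRM1, these were unnamed loci such as MSTRG.28632, with 407, 804 and 425 counts among PN embryos, 48, 0 and 22 in MII oocytes and 69598, 94264 and 96761 in sperm, and MSTRG.48148, with 432, 498 and 700, 53, 56 and 45, and 60592, 67266 and 74523. Neither passed the test between PN embryos and MII oocytes. MSTRG.12085 was uneven, with 220, 7 and 0 counts among PN embryos, none in MII oocytes and 107870, 103831 and 106912 in sperm. Over all top 100 loci, restricted or not, PN embryos lay above MII oocytes in 14 and below in 32, against the 2.86% and 5.61% over all loci.

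In the lncRNA table, 8321 of 10022 tested transcripts passed between sperm and PN embryos in limma on log2(coverage + 1), 392 higher in sperm (3.91%) and 7929 lower (79.1%). With quantile normalization the split was 575 higher and 646 lower. Without any 1 of the PN embryo libraries only between 1674 and 1758 transcripts were tested, since those of PN embryos alone then no longer met the filter of 3 libraries. Between 245 and 252 were higher and between 108 and 120 lower. Most of the 7929 lower calls thus rest on transcripts that met the filter through PN embryos alone, the group in which they were high. On this scale the change of transcripts of low coverage is understated. The PRM1 transcript MSTRG.45201.1 had a coverage of 22560, 25550 and 26770 in sperm and of 12.8, 8.91 and 17.1 in PN embryos. The groups were far apart, with a difference of 10.85 ± 0.73 on the log2(coverage + 1) scale (SE, n = 3 per group, limma adjusted p = 5.97e-05). DAB2IP (11.26 ± 0.49), RANGAP1, the activator of the Ran GTPase (10.57 ± 0.40), CCDC136, a protein of the acrosome (10.48 ± 0.83), and ZNF598 (10.45 ± 0.67) were also higher in sperm, all with a coverage of at most 14.1 in every PN embryo library. Lower in sperm were transcripts of SMG6, an endonuclease of nonsense-mediated decay (-11.22 ± 0.45), NKAIN2 (-11.16 ± 0.37), the transporters SLC6A20 (-10.99 ± 0.87) and SLC44A5 (-10.88 ± 0.32), and the splicing factor SF3B1 (-10.84 ± 0.37). SF3B1 had a coverage of 7646, 8495 and 7949 in PN embryos and of 4.23, 3.83 and 2.32 in sperm. SLC44A5 had 2878, 2681 and 2475 in PN embryos and 0.44, 0 and 0.97 in sperm. The SLC44A5 transcript met the filter through PN embryos alone, so its call says no more than these values.

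A lncRNA at 0 in the embryo was seldom a locus at 0. The top 100 lncRNAs of sperm came from 44 loci, and 40 of these had a transcript above 0 in a PN embryo library. Of the 39 transcripts at 0 in all PN embryo libraries, 35 came from loci whose mRNA count was above 0 in all 3 of them, and 2 from loci at 0 in all. The MAPK10 locus had 16 transcripts, and all 16 were in the top 100. Their coverage moved between libraries of one group, as in MSTRG.69172.13, which had 0, 0 and 77470 in sperm and 998, 0 and 172 in PN embryos. The Metazoa_SRP transcript MSTRG.8365.2 had 0, 102300 and 0 in sperm, and MSTRG.8365.5 had 17770, 22560 and 41010 in sperm and 0 in PN embryos and MII oocytes. Of 15420 lncRNAs above 0 in any sperm library, 12348 were so in only 1 and 843 in all 3. Of the 100 most abundant of these 843, 25 were at 0 in all PN embryo libraries, 38 at 0 in all MII oocyte libraries and 30 above 0 in all PN embryo libraries.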

How the data were processed

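Strand-specific, ribosomal RNA-depleted libraries of 3 groups were used, 3 libraries each. The authors deposited unnormalized counts per mRNA locus and per circRNA, and for lncRNAs the coverage per transcript, a signal whose depth in reads is unknown. The submitters' processing notes list cutadapt 1.9, TopHat2 2.0.4, HISAT2 2.0.4, StringTie 1.3.4d and edgeR with the Sscrofa11.1 build; edgeR served for differential tests, and the roles of the others and the circRNA caller are not given in the sources used here. Of the value columns, 0 were left unused. Groups came from the labels.

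Counts were tested here with edgeR 4.0.16 in R 4.3.3 (glmQLFit and glmQLFTest, sperm and PN embryo libraries alone, no block). mRNA loci passed filterByExpr and were scaled by TMM. CircRNAs and host sums had to be above 0 in at least 2 libraries and were scaled to the reads sequenced per library, a choice made in view of the unequal circRNA totals. Coverage was tested with limma 3.58.1 on log2(coverage + 1) where 3 or more libraries reached a coverage of 1. The threshold was an absolute log2 fold change of 1 and a Benjamini-Hochberg adjusted p of 0.05. Fits were tested on simulated data. Tables were made in Python 3.11.15 with pandas 2.3.3 and numpy 2.4.6. The alternatives were DESeq2 1.42.0, other scalings and filters, all groups in 1 fit, a replicate block and each library left out.

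The rule for named features took the 20 circRNAs highest in sperm, the 10 highest in PN embryos and those above 0 in every library of both groups, the 10 host genes highest in sperm, and, of mRNA loci and lncRNAs with a name, the 10 highest in sperm and the 10 with the largest changes each way. Chosen after their values were seen were the circRNAs with over 10 counts in a PN embryo library, the other host genes past the threshold, and loci named as restricted to sperm or as of similar count in both groups. Names of mRNA loci came from the lncRNA table. Ensembl identifiers were paired with symbols for 228 of 963 loci and 55 of 146 host names. Members, lists and rules were chosen with earlier results of these data known. Sequences came from the study's supplementary oligo and circRNA listings. PCR reads without molecular identifiers are not independent molecules, and floors cover counting error only.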

Additional observations from a re-analysis of the deposited data

How the results depend on the processing

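The comparison of mRNA loci gave 10852 calls, between 9574 and 10567 with 1 library left out, 1175 with the replicate block (463 higher and 712 lower in sperm) and 680 without a filter on low values. For lncRNAs, 8321 calls became 1221 with quantile normalization and between 353 and 7452 with 1 library left out. Without a PN embryo library fewer transcripts met the filter and between 353 and 372 passed, most of them higher in sperm. For circRNAs, 0 calls became 2 without a filter, 107 with 3 groups in 1 fit, 246 with DESeq2, 17 with TMM, 7 with total counts, 57 for circRNAs above 0 in at least 3 libraries, and between 0 and 66 with 1 library left out. For host genes, 39 calls became 0 with the replicate block, 8 without a filter, 81 with 3 groups in 1 fit, 234 with DESeq2, 7 with TMM, 8 with total counts and between 0 and 53 with 1 library left out. The cause of these shifts was not tested.

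The correlations of same-numbered deviations from the group means lay between -0.017 and 0.028, so no pairing by replicate number was seen. With so few libraries this cannot show that the libraries were unpaired, and the labels do not say. The share of the top 100 lncRNAs at 0 in PN embryos, 39%, was 22% when ranked by the lowest sperm library, 53% when a coverage of 2 counted as missing, and between 38% and 48% with 1 library left out. For circRNAs, 52% became 15% for the top 20, 76% for the top 500, 82% when 2 counts were allowed and between 56% and 68% with 1 library left out. Of mRNA loci it stayed between 0% and 1%. Chosen after the data were seen were the scaling of mRNA to sequenced reads, with 11274 calls, and all settings for loci restricted to sperm, where 3 calls higher in PN embryos and 0 lower became 8 and 4 with DESeq2, and the 3 became between 2 and 3 with 1 library left out.

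No refit turned the direction of a feature given with a test. Refits in which a feature no longer met the filter on low values are left out of the counts below. An example is circRNA-516 with a sperm library left out. Between sperm and PN embryos, all 107 refits of 10 lncRNAs kept the call, and 5 of 240 refits of 20 mRNA loci lost it. UBE2D3 lost it with the replicate block (-1.07), without a filter (-1.47) and with DESeq2 (-0.94), and RAD54L with the block and without a filter. Of 285 refits of 26 host genes 137 lost a call and 12 gained one, and of 93 refits of 8 circRNAs 43 gained one. Between PN embryos and MII oocytes 6 of 40 refits of 4 loci lost a call. CircRNA values rest on 2 sperm libraries, and a circRNA at 0 can be present below 3 counts.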
